A study of Mus musculus with 12 samples.

Results

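Interferon-stimulated genes are the genes that a cell turns on when an interferon reaches its receptor, and 38 of them were followed here in mouse liver. The members were found by their symbols, each on 1 row, among the 53796 genes of the expression table. They fall into 3 classes by function: 25 antiviral effectors and sensors, 4 transcription factors, and 9 guanylate-binding proteins and immunity-related GTPases (GBP and IRG GTPases). Of the 38, 36 passed the filter on low values (at least 1 FPKM in at least 3 libraries), and the 2 below it were Mx1 and Oas2.

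Transcripts of mouse liver were quantified by RNA-seq, with 12 libraries of total RNA divided equally among 4 groups (n = 3 each). The first group, RIPK1_D138N, carried a point mutation in the kinase RIPK1 that removes its kinase activity. The second, TNFR12_KO, lacked TNF receptors 1 and 2. The WT group was wild type, and the Sham group was wild type with a sham label. The labels mark sham treatment for that last group alone, and the title of the series is the reason to treat the remaining 3 as ischemic. Sham livers of either mutant are not analysed here, so the effect of a genotype without ischemia cannot be told apart from its effect after it. The labels name the genotypes but not how the alleles were made, nor the age of the animals, the length of ischemia or whether the 3 repeats of a group were separate animals. If they were not, the p-values measure a technical spread.

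Type I interferons signal through the receptor Ifnar1/Ifnar2 to a complex that holds Stat2 and Irf9 and binds the interferon-stimulated response element (ISRE) of genes such as Rsad2 and the Ifit family. Interferon gamma signals through Ifngr1/Ifngr2 to genes with the gamma-activated sequence (GAS) and, through Irf1, drives the GBP and IRG GTPases that attack the vacuoles of intracellular pathogens. Many members respond to both. TNF can itself induce interferon beta in macrophages, and RIPK1 kinase activity drives necroptosis and apoptosis below TNF receptor 1.

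Promoter windows show which members carry the letters of these elements. RefSeq windows on GRCm38.p6, from 250 bases before to 50 after an annotated start, were matched by symbol for 29 of the 38 members (33 windows). The ISRE was searched as GAAA, any 2 bases and GAAA, on either strand, and the GAS as TTCNNNGAA, which is its own reverse complement. ISRE letters stood in the windows of 17 of the 29 members (58.6%), against 1079 of 27025 genes in the whole table (3.99%). GAS letters stood in those of 10 of the 29 members (34.5%), against 2582 of 27025 genes (9.55%). By class, ISRE letters were found in 9 of 17 antiviral members, 1 of 4 transcription factors and 7 of 8 GTPases, and GAS letters in 5 of 17, 1 of 4 and 4 of 8. The letters of the 2 motifs overlapped in Bst2 and Ifitm3. A match describes the sequence and is not a measured site.

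The windows of 4 antiviral members are shown because Rsad2, Isg15 and Ifit3 were high in WT livers while Bst2 was low there. Rsad2 lies at chr12:26456403-26456702 on the minus strand, Isg15 at chr4:156200769-156201068 on the minus strand, Ifit3 at chr19:34583279-34583578 on the plus strand and Bst2 at chr8:71537423-71537722 on the minus strand. Each is printed 5′ to 3′ in the gene's orientation, with ISRE and GAS letters in capitals.
Rsad2: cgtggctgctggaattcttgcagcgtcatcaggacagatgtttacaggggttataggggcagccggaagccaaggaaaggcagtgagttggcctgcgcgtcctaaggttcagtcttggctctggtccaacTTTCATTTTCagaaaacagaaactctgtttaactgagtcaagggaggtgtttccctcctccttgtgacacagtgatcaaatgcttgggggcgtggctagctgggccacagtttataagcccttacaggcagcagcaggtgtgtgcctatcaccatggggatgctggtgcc
Isg15: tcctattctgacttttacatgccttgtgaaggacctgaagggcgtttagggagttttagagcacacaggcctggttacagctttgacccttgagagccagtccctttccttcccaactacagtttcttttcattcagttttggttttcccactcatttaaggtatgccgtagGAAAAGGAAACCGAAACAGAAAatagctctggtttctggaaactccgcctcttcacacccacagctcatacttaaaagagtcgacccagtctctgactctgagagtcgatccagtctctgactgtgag
Ifit3: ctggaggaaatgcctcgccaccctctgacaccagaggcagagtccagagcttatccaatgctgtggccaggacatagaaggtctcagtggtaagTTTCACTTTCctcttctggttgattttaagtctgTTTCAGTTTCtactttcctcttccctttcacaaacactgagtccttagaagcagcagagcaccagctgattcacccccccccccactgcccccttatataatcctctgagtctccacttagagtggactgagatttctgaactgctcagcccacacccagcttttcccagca
Bst2: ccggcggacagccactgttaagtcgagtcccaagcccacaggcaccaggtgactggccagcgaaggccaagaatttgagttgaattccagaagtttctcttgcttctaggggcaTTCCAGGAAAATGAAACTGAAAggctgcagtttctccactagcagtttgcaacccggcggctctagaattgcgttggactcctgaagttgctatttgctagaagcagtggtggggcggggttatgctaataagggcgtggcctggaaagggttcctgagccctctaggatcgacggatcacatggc
Rsad2 held 1 ISRE match, Isg15 held 3 that overlap, Ifit3 held 2, and Bst2 held 2 that overlap each other, with a GAS match reaching into the first of them. The Isg15 and Bst2 windows thus both hold overlapping ISRE letters. In FPKM, Isg15 was higher and Bst2 lower in WT than in Sham livers. The fall of Bst2 was not called with quantile normalization of the libraries.

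Stretches of 51 bases from 3 IRG GTPases are shown because Igtp, its neighbour Irgm2 and the more distant Tgtp1 share a composite of both motifs. They lie at chr11:58199491-58199541 (Igtp, plus strand), chr11:58214882-58214932 (Irgm2, plus strand) and chr11:48992304-48992354 (Tgtp1, minus strand), and the capitals mark GAS letters followed by ISRE letters.
Igtp: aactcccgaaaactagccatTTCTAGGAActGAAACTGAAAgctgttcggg
Irgm2: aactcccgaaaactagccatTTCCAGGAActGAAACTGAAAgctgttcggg
Tgtp1: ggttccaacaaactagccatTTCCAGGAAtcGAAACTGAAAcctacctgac
The motifs are 2 bases apart in all 3 stretches. Igtp and Irgm2 are identical at 50 of the 51 bases, Igtp and Tgtp1 at 35, and Irgm2 and Tgtp1 at 36. Relative to WT, Igtp was called higher in both mutants and Tgtp1 in TNFR12_KO, while Irgm2 was not called in any of the 6 comparisons.

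**Figure D1:**
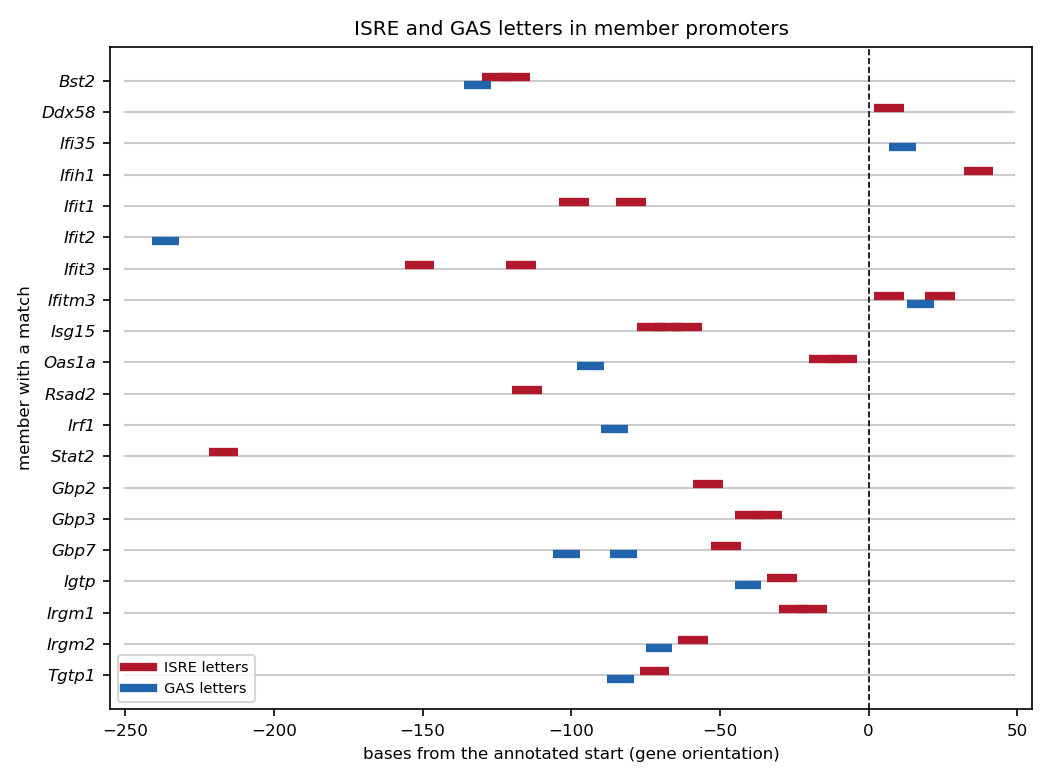
Positions of ISRE letters (red) and GAS letters (blue) in the promoter windows of the members that hold a match, in bases from the annotated start, which is the dashed line. Igtp, Irgm2 and Tgtp1 each hold a GAS match followed 2 bases later by an ISRE match.

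The libraries differ in ways that bear on every value below. The sum of FPKM over all genes was 489348 to 518580 in RIPK1_D138N, 441296 to 512931 in TNFR12_KO, 288934 to 303514 in WT and 649373 to 750501 in Sham. The files give no counts. From the steps between low values, the fragments behind 1 FPKM, relative to the coarsest library, were 1.65 to 2.15 in RIPK1_D138N, 1.93 to 2.95 in TNFR12_KO, 3.05 to 5.42 in WT and 1.0 to 2.27 in Sham. RIPK1_D138N replicates 2 and 3 had Xist, the female-specific X-inactivation transcript, at 20.1 and 23.4 FPKM with the Y-linked gene Ddx3y at 0.0176 and 0 FPKM. The other 10 libraries stayed at or below 0.0824 FPKM for Xist, with Ddx3y at 12 FPKM or more. Results on RIPK1_D138N are therefore also given without those 2 libraries, which leaves 1 library that is assumed to vary like the other groups.

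Most members were modestly expressed. The median of the members' mean levels was 4.77 FPKM in RIPK1_D138N, 5.69 in TNFR12_KO, 5.70 in WT and 2.85 in Sham. Ifitm3, Bst2 and Iigp1 had the highest levels, and Mx1 and Oas2 stayed at or below 0.990 FPKM in all 12 libraries. FPKM is scaled to transcript length, so levels can be compared between genes.

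Rsad2, Ifit3 and Ifit1 had their highest levels in WT livers and lower levels in the mutants. Rsad2 encodes viperin, which makes a nucleotide that stops viral RNA synthesis. Its level was 4.02, 1.73 and 1.61 FPKM in RIPK1_D138N, 11.7, 13.4 and 15.6 in TNFR12_KO, 33.3, 45.0 and 35.1 in WT and 1.02, 1.79 and 1.14 in Sham. The WT libraries were all the highest, the TNFR12_KO libraries came next without overlap, and RIPK1_D138N overlapped Sham in replicates 2 and 3. Those are the 2 libraries with Xist, and replicate 1, at 4.02 FPKM, lay above every Sham library. Ifit3, whose product helps Ifit1 bind viral RNA, stood at 5.22, 6.81 and 5.93 FPKM in RIPK1_D138N, 9.49, 7.54 and 9.45 in TNFR12_KO, 18.9, 21.3 and 22.9 in WT and 3.09, 3.0 and 3.87 in Sham. Ifit1, which recognises viral RNA ends, stood at 2.65, 3.02 and 3.97 FPKM in RIPK1_D138N, 3.43, 4.17 and 4.73 in TNFR12_KO, 8.14, 10.6 and 9.34 in WT and 1.27, 2.15 and 1.43 in Sham. For both Ifit genes the WT libraries lay above all others and the Sham libraries below all others. The mutants stood between them, overlapping each other for Ifit1 but not for Ifit3.

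Isg15, Usp18 and Oasl1 are the regulators among these members. Isg15, a ubiquitin-like modifier, was at 18.4, 13.7 and 19.3 FPKM in RIPK1_D138N, 23.1, 28.1 and 26.8 in TNFR12_KO, 36.5, 67.6 and 44.1 in WT and 18.8, 15.4 and 17.7 in Sham. Usp18, which removes Isg15 from proteins and dampens the type I receptor, was at 3.30, 3.82 and 3.74 FPKM in RIPK1_D138N, 5.77, 5.84 and 5.04 in TNFR12_KO, 6.70, 7.55 and 8.65 in WT and 1.96, 2.77 and 1.02 in Sham. In both genes the 4 groups kept apart except that RIPK1_D138N overlapped Sham for Isg15. Oasl1, which in mouse represses the translation of Irf7, was at 3.59, 3.52 and 2.60 FPKM in RIPK1_D138N, 4.19, 14 and 9.98 in TNFR12_KO, 6.58, 7.11 and 9.12 in WT and 1.32, 2.12 and 1.48 in Sham. TNFR12_KO spread widely here, with replicate 1 below and replicates 2 and 3 above every WT library.

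Bst2, Ifitm3 and Ifi35 had the opposite pattern, with their lowest levels in WT livers. Bst2, or tetherin, holds budding virions at the cell surface, and stood at 225, 228 and 264 FPKM in RIPK1_D138N, 190, 244 and 165 in TNFR12_KO, 58.9, 92.0 and 63.7 in WT and 207, 171 and 204 in Sham. Ifitm3, which blocks fusion of viruses with the endosome, stood at 608, 736 and 831 FPKM in RIPK1_D138N, 798, 1015 and 797 in TNFR12_KO, 291, 401 and 297 in WT and 753, 804 and 965 in Sham. Ifi35, an interferon-induced leucine zipper protein, stood at 18.4, 18.6 and 17.4 FPKM in RIPK1_D138N, 21.1, 21.4 and 18 in TNFR12_KO, 11.8, 11.4 and 12.6 in WT and 27.6, 23.9 and 27.2 in Sham. No WT library reached the level of any other library for these 3 genes. Ifitm3 overlapped among the other 3 groups, the Bst2 range of TNFR12_KO overlapped those of both RIPK1_D138N and Sham, and Ifi35 was higher in each Sham library than in each mutant library.

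Among the GTPases, Igtp (also known as Irgm3, which protects host membranes from the effector IRG proteins) was high in the mutants. It stood at 15.9, 23.9 and 27.3 FPKM in RIPK1_D138N, 14.9, 11.9 and 14.3 in TNFR12_KO, 5.10, 4.07 and 7.13 in WT and 5.35, 7.93 and 9.12 in Sham. All 6 mutant libraries lay above all 6 WT and Sham libraries, and RIPK1_D138N lay above TNFR12_KO. Ifi47, an IRG GTPase, stood at 7.37, 6.28 and 5.88 FPKM in RIPK1_D138N, 8.87, 8.34 and 9.74 in TNFR12_KO, 5.27, 3.53 and 8.33 in WT and 17.0, 10.5 and 12.5 in Sham. Sham was highest, and the WT libraries spread across the RIPK1_D138N range. Ifi47 and Tgtp1 share a locus in the table, but their annotated exons do not overlap. Igtp and Irgm2 share a locus and have overlapping exons, so the division of fragments between them is uncertain. The same holds for the near-identical copies Tgtp1 and Tgtp2, Ifit3 and Ifit3b, and Oas1a and Oas1g.

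**Figure D2:**
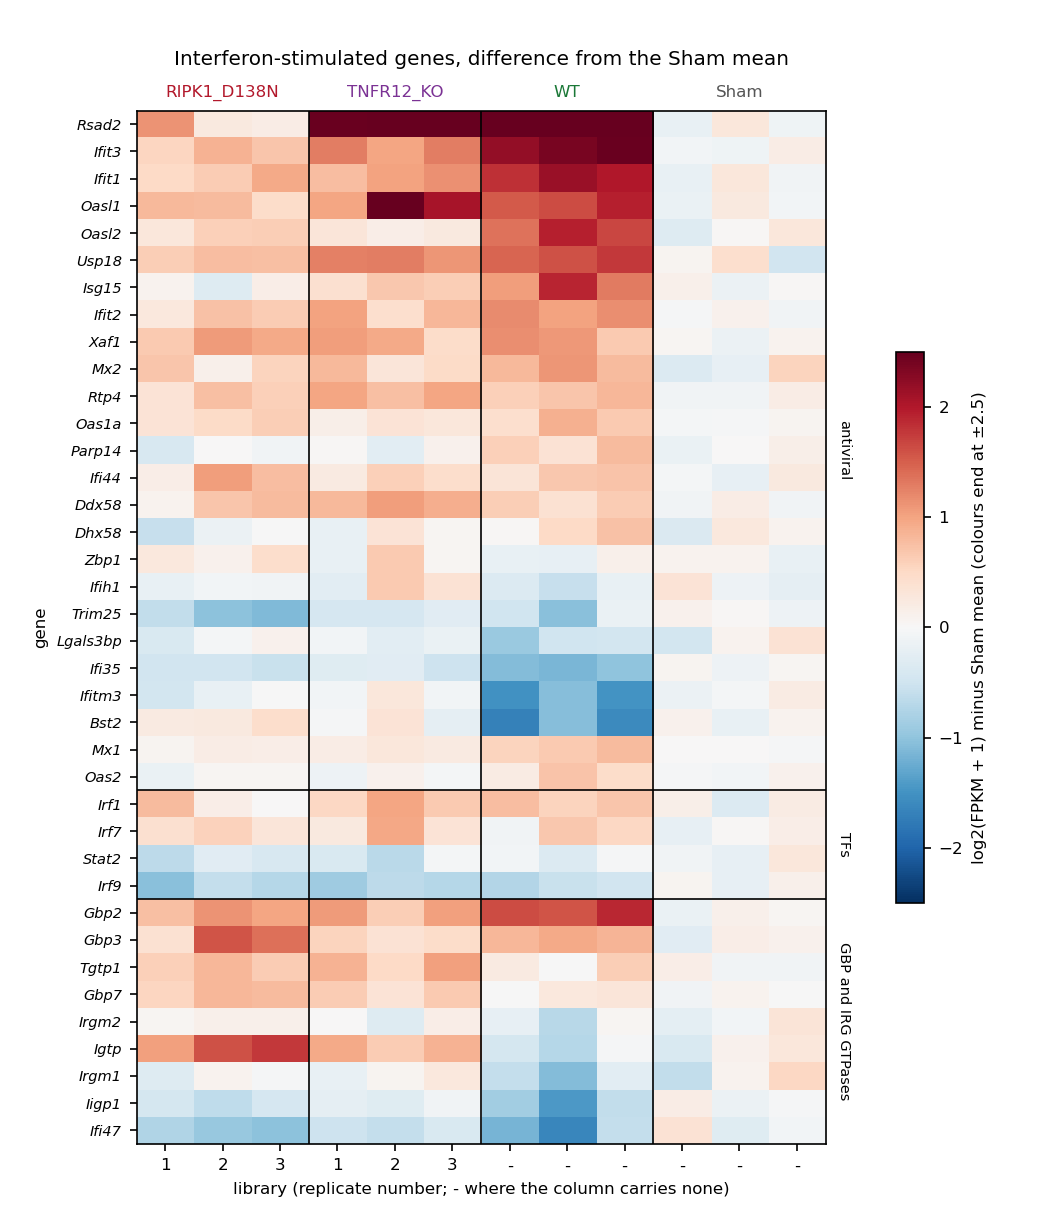
Level of each of the 38 members in each of the 12 libraries as log2(FPKM + 1) minus the Sham mean, red above it and blue below it, with colours ending at 2.5. Rows run by class, and columns by group from RIPK1_D138N to Sham. Rsad2 is darkest in WT and TNFR12_KO, Bst2 and Ifitm3 are darkest blue in WT, and Igtp is red in both mutants.

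**Figure D3:**
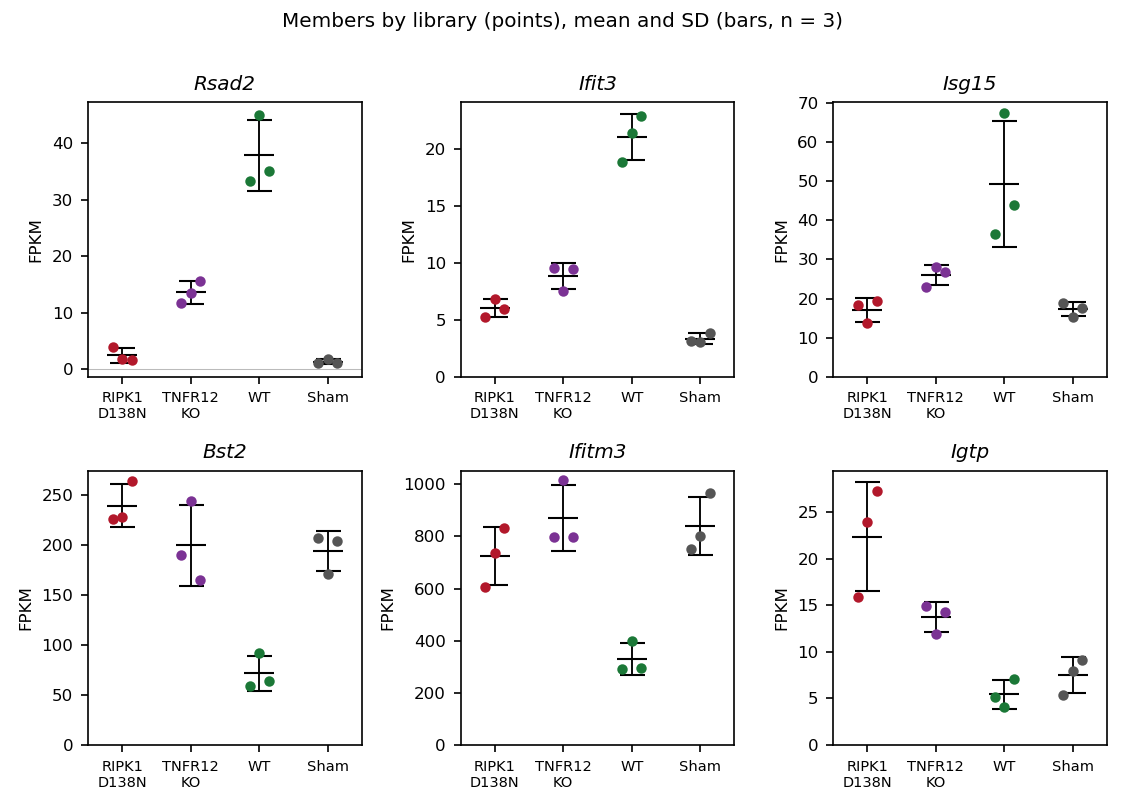
FPKM of 6 members in each library (points), with the mean and SD of 3 libraries per group (bars). Rsad2, Ifit3 and Isg15 are highest in WT, Bst2 and Ifitm3 are lowest there, and Igtp is highest in RIPK1_D138N and TNFR12_KO.

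WT livers were compared with Sham livers to ask what ischemia does in the wild type. Most antiviral members were higher in WT than in Sham, led by Rsad2 and the Ifit genes, while the highly expressed Bst2, Ifitm3 and Iigp1 were lower. Of the 36 members tested, 18 rose and 8 fell (22.2%) at an adjusted p under 0.05, against 58.2% of all 11728 genes called in either direction, 16.4% higher and 41.9% lower. The members' median log2 fold change was 0.48, against -0.36 over all genes tested. The tests were made with limma on log2(FPKM + 1), a scale that understates the change of low genes.

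Among the antiviral effectors and sensors 15 of 23 tested rose and 5 fell, with a median log2 fold change of 0.66. Rsad2 rose by 4.07 (SE 0.25, adjusted p = 9.78e-08), Ifit3 by 2.35 (SE 0.16, adjusted p = 2.25e-07) and Ifit1 by 1.99 (SE 0.18, adjusted p = 2.26e-06). Oasl1 rose by 1.70, Oasl2 by 1.66, Usp18 by 1.61, Isg15 by 1.42 and Ifit2 by 1.12. Smaller rises were called for the RNA sensor Ddx58 (RIG-I) at 0.55, Mx2 at 0.90, Oas1a at 0.66 and Xaf1 at 0.97. Further small rises were called for Rtp4 at 0.71, Parp14 at 0.59 and Ifi44 at 0.57. Mx2, of the dynamin-like GTPase family, is annotated as a polymorphic pseudogene. With each of the 12 libraries left out in turn, the calls of Ifi44, Ddx58 and Parp14 were lost 6, 4 and 1 times, with adjusted p up to 0.134. The other RNA sensors, Ifih1 (MDA5) at -0.37 and Dhx58 (LGP2) at 0.41, were not called, nor was Zbp1, a sensor of Z-form nucleic acids, at -0.09. Mx1 averaged 0.675 ± 0.133 FPKM in WT and 0.0523 ± 0.0166 FPKM in Sham (SD, n = 3 each), and Oas2 averaged 0.693 ± 0.292 FPKM in WT and 0.218 ± 0.080 FPKM in Sham. In the fit with no filter on low values both were called higher, at adjusted p = 3.65e-05 for Mx1 and 0.0189 for Oas2.

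Bst2 (-1.45, SE 0.20, adjusted p = 6.25e-05), Ifitm3 (-1.35, SE 0.20, adjusted p = 9.55e-05) and Ifi35 (-1.07, SE 0.14, adjusted p = 2.8e-05) fell, as did Lgals3bp, a secreted galectin ligand, at -0.63 and the ubiquitin ligase Trim25 at -0.57. The size and the calls of this second set depended on how the libraries were scaled to each other, and the sign of Lgals3bp turned under 1 scaling. With median-of-ratios scaling the median of all genes moved to -0.03 and that of the members to 0.76. There 21 members rose and 5 fell, against 3169 higher and 3185 lower of all 11728 genes. Lgals3bp and Trim25 were no longer called (they were also lost in 3 and 4 of the 12 fits that leave out a library). With quantile normalization 18 members rose and 2 fell, against 2936 higher and 3164 lower of all genes. Bst2 (-0.19) and Ifitm3 (-0.11) were no longer called, and Lgals3bp stood at 0.12. The 2 that still fell were Ifi35 (-0.44) and Ifi47 (-0.74).

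The transcription factors moved little. Irf1, which relays interferon gamma signals, rose by 0.67 (adjusted p = 0.0203), with means of 12.9 ± 1.06 FPKM in WT and 7.85 ± 1.76 FPKM in Sham, a call lost in 3 of 12 fits that leave out a library. Irf9, the DNA-binding part of the type I complex, fell by 0.58 (adjusted p = 0.00861), a call lost with median-of-ratios scaling. Irf7, the factor that amplifies interferon production, was at 0.37 and Stat2 at -0.14, and neither was called. Irf7 overlaps exons of the expressed gene Phrf1 on the other strand, and whether counting used strand is not stated. Irf9 overlaps exons of the expressed gene Rnf31 on the same strand. Among the antiviral members, Rtp4 overlaps exons of Gm45338 on the same strand (up to 7.04 FPKM). Usp18 overlaps exons of Gm44148 on the other strand (up to 2.5 FPKM). The fragments of these pairs could be mixed.

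The GBP and IRG GTPases did not move as 1 group: 2 of 9 rose, 2 fell and 5 were not called, with a median of -0.28, near the median of all genes. Gbp2 rose by 1.70 (adjusted p = 5.4e-06), with means of 3.85 ± 0.563 FPKM in WT and 0.491 ± 0.155 FPKM in Sham, and Gbp3 rose by 0.88. Ifi47 fell by 1.13 (adjusted p = 0.00142) and Iigp1, also called Irga6, by 0.97 (adjusted p = 0.00101), although with quantile normalization Iigp1 stood at 0.17. Gbp7 (0.19), Igtp (-0.40), Irgm1 (-0.65), Irgm2 (-0.28) and Tgtp1 (0.27) were not called.

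**Figure D4:**
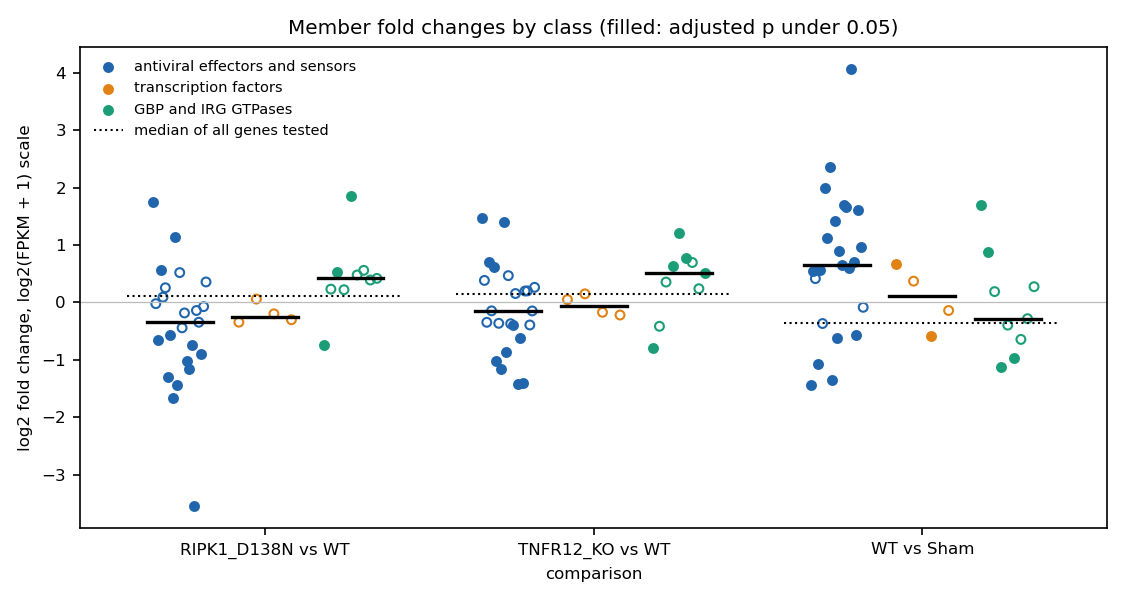
Log2 fold change of each tested member on the log2(FPKM + 1) scale in RIPK1_D138N vs WT, TNFR12_KO vs WT and WT vs Sham, by class, with filled points at an adjusted p under 0.05. Solid bars are class medians and dotted lines the median of all 11728 genes tested. The antiviral median is 0.66 in WT vs Sham and -0.35 in RIPK1_D138N vs WT, and the GTPase medians are 0.42 and 0.52 in the mutants vs WT.

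RIPK1_D138N and TNFR12_KO livers were each compared with WT livers to ask how the mutants differ after ischemia. Both comparisons use the same WT libraries, which also stand in WT vs Sham, so a high or low WT value enters all 3, and values are given side by side with no measure of agreement. In RIPK1_D138N vs WT, 5 members rose (13.9%) and 11 fell (30.6%), against 51.8% of all genes called in either direction, 29.8% higher and 21.9% lower. In TNFR12_KO vs WT, 8 rose and 8 fell (22.2% each), against 47.1% of all genes called, 29.6% higher and 17.5% lower. The members' median log2 fold changes were -0.11 and 0.10, against 0.11 and 0.14 over all genes. In both comparisons the members' share of calls (44.4%) lay below that of all genes.

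By class, 3 antiviral members rose and 10 of 23 fell in RIPK1_D138N vs WT (median -0.35), so 43.5% fell, against 21.9% of all genes. Of the 9 GTPases, 2 rose and 1 fell there (median 0.42), and the 22.2% that rose lay below the 29.8% of all genes. Without the 2 Xist-positive libraries Gbp7 lost its call, which left 1 GTPase higher (Igtp) and 1 lower (Gbp2). In TNFR12_KO vs WT 4 antiviral members rose and 7 fell (median -0.15), so 30.4% fell, against 17.5% of all genes. There 4 GTPases rose and 1 fell (median 0.52), so 44.4% rose, against 29.6% of all genes. Of these 4 rises, that of Iigp1 turned sign with quantile normalization. With each of the 12 libraries left out in turn, the Ifi47 and Tgtp1 calls were lost 8 and 5 times. The Igtp call was kept in all of those fits. The difference between the classes was not itself tested. Without the 2 Xist-positive libraries the members' median in RIPK1_D138N vs WT was -0.32, against 0.06 over all genes. With median-of-ratios scaling 5 members rose and 10 fell in TNFR12_KO vs WT, against 2903 higher and 2970 lower of all 11728 genes. With quantile normalization 6 rose and 9 fell there, against 2859 higher and 3093 lower of all genes.

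Rsad2 fell by 3.55 in RIPK1_D138N (SE 0.25, adjusted p = 6.92e-07) and by 1.41 in TNFR12_KO (SE 0.25, adjusted p = 0.00046), relative to WT. Ifit3 fell by 1.66 in RIPK1_D138N (adjusted p = 4.19e-06) and by 1.17 in TNFR12_KO (adjusted p = 7.06e-05). Ifit1 fell by 1.30 (adjusted p = 8.26e-05) in RIPK1_D138N and by 1.02 (adjusted p = 0.000595) in TNFR12_KO. These 3 genes, which had the largest rises of the members in WT vs Sham, were lower than WT in all 6 mutant libraries. Isg15 fell by 1.44 in RIPK1_D138N and 0.86 in TNFR12_KO, and Oasl2, an oligoadenylate synthetase-like gene, by 1.17 and 1.42. Oasl2 averaged 1.20 ± 0.275 FPKM in RIPK1_D138N, 0.839 ± 0.0877 in TNFR12_KO, 3.98 ± 0.979 in WT and 0.579 ± 0.327 in Sham. Parp14, an ADP-ribosyltransferase, and Gbp2 also fell in both mutants, by 0.75 each in RIPK1_D138N and by 0.63 and 0.80 in TNFR12_KO, where the Parp14 call was lost in 2 of 12 fits that leave out a library.

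Some antiviral members passed the test in 1 mutant only, which does not show that the mutants differ. Usp18 fell by 0.90 in RIPK1_D138N (adjusted p = 0.00269) and stood at -0.39 in TNFR12_KO (adjusted p = 0.131). Oasl1 fell by 1.02 in RIPK1_D138N (adjusted p = 0.0141), a call lost when RIPK1_D138N replicate 3, 1 WT library or the 2 Xist-positive libraries were left out, and stood at 0.15 in TNFR12_KO (adjusted p = 0.706). Ifit2 and Dhx58 were called lower in RIPK1_D138N at -0.57 and -0.66, and neither was called without RIPK1_D138N replicate 1 or without either of 2 WT libraries. In TNFR12_KO Oas1a was called lower at -0.40 (adjusted p = 0.0494) and Ifih1 higher at 0.62 (adjusted p = 0.041), calls lost in 10 and 7 of the 12 fits that leave out a library. Mx1 and Oas2 were called lower in both mutants in the fit with no filter, with adjusted p of 0.000199 and 0.0174 in RIPK1_D138N and 0.000696 and 0.02 in TNFR12_KO. Mx1 averaged 0.160 ± 0.0550 FPKM in RIPK1_D138N and 0.236 ± 0.0362 FPKM in TNFR12_KO.

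Bst2 rose by 1.75 in RIPK1_D138N (SE 0.20, adjusted p = 1.85e-05) and by 1.48 in TNFR12_KO (SE 0.20, adjusted p = 7.99e-05), relative to WT. Ifitm3 rose by 1.14 in RIPK1_D138N and 1.40 in TNFR12_KO, and Ifi35 by 0.57 and 0.71. With quantile normalization Bst2 still rose, by 0.76 in RIPK1_D138N and 0.58 in TNFR12_KO, whereas Ifitm3 (0.25) and Ifi35 (0.27) were no longer called in RIPK1_D138N, where Ifi35 also lost its call without the 2 Xist-positive libraries (0.59, adjusted p = 0.0583). These abundant transcripts were lower in WT beside the hepatocyte markers, whose summed level was 15980 to 18320 FPKM in RIPK1_D138N, 14520 to 17410 in TNFR12_KO, 5164 to 7695 in WT and 27610 to 32310 in Sham. Alb was listed at 0 in every library and Serpina1c at 0 in TNFR12_KO. The TNFR12_KO sum thus lacks a marker that the other sums hold. The part of the hepatocyte content in the member values was not tested. In bulk tissue, fewer cells of a type and less RNA per cell cannot be told apart.

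Igtp had the largest rise of the GTPases in both mutants, by 1.85 in RIPK1_D138N (SE 0.24, adjusted p = 4.41e-05) and by 1.21 in TNFR12_KO (SE 0.24, adjusted p = 0.00123). It was called in both comparisons under each scaling, and in RIPK1_D138N without the 2 Xist-positive libraries (1.42, adjusted p = 0.0051). Gbp7 rose by 0.53 in RIPK1_D138N (adjusted p = 0.0127), a call lost without those libraries. In TNFR12_KO Iigp1 rose by 0.77, Ifi47 by 0.63 and Tgtp1 by 0.52, but Iigp1 stood at -0.13 with quantile normalization, and the Ifi47 and Tgtp1 calls (adjusted p = 0.0462 and 0.0393) were lost in 8 and 5 of the 12 fits that leave out a library. Iigp1 averaged 79.9 ± 6.18 FPKM in RIPK1_D138N, 97.8 ± 7.36 in TNFR12_KO, 58.5 ± 16.0 in WT and 113 ± 13.1 in Sham. Irgm1, a regulator of the effector IRG proteins, averaged 16.6 ± 2.44 FPKM in RIPK1_D138N, 18.4 ± 3.02 in TNFR12_KO and 11.2 ± 3.37 in WT and was called in neither mutant, as was Irgm2. None of the 4 transcription factors was called in either mutant vs WT by limma, at adjusted or unadjusted p under 0.05.

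RIPK1_D138N livers were compared with TNFR12_KO livers directly, to ask whether the 2 mutants differ. Rsad2 was the 1 member called of 36 (2.78%), against 0.929% of all genes called, 0.35% higher and 0.58% lower. It was lower in RIPK1_D138N by 2.14 (SE 0.25, adjusted p = 0.000845), with no overlap of the libraries. Without the 2 Xist-positive libraries the difference was -1.53 (adjusted p = 0.0419), resting on 1 RIPK1_D138N library. The members' median was -0.13, against -0.05 over all genes, and 8 members had an unadjusted p under 0.05. Oasl1 stood at -1.17 (adjusted p = 0.103), and at -1.61 (adjusted p = 0.00504) without TNFR12_KO replicate 1. Gbp3 averaged 4.24 ± 1.99 FPKM in RIPK1_D138N and 2.16 ± 0.204 FPKM in TNFR12_KO, a difference of 0.65 (adjusted p = 0.302). It was 1.01 (adjusted p = 0.00529) without RIPK1_D138N replicate 1, which was the lowest of its group at 2.00 FPKM. That fit leaves only the 2 Xist-positive libraries in RIPK1_D138N, so genotype and the Xist difference cannot be told apart there. Over all genes it called 273 higher and 315 lower, against 41 and 68 with all libraries. For the other members a difference was not detectable, which does not show that the mutants are alike.

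Against Sham, which is wild type, the mutants differ in genotype as well as in treatment, and these cannot be told apart. In RIPK1_D138N vs Sham 13 members rose (36.1%) and 4 fell (11.1%), against 30.2% of all genes called, 7.51% higher and 22.7% lower. Without the 2 Xist-positive libraries the count of members called fell to 2, while over all genes 300 were called higher and 738 lower, against 881 and 2658 with all libraries. Without replicate 3 alone it was 9, and without replicate 2 alone 11. In TNFR12_KO vs Sham 14 rose (38.9%) and Irf9 fell (2.78%), against 25.6% of all genes called, 7.46% higher and 18.1% lower. The members' medians were 0.44 in both, against -0.22 and -0.18 over all genes. Rsad2 was at 0.52 in RIPK1_D138N (adjusted p = 0.124, not called) and rose by 2.66 in TNFR12_KO (adjusted p = 1.91e-05). In RIPK1_D138N, replicate 1 had Rsad2 at 4.02 FPKM, above the Sham libraries at 1.02, 1.79 and 1.14 FPKM. The Xist-positive replicates 2 and 3 had it at 1.73 and 1.61 FPKM, within the Sham range. Oasl1 rose by 1.86 in TNFR12_KO and stood at 0.68 in RIPK1_D138N, where it was not called. Ifit1, Ifit2, Ifit3, Usp18, Xaf1, Rtp4, Gbp2, Gbp7, Igtp and Tgtp1 rose in both, with Ifit3 at 0.69 in RIPK1_D138N and 1.19 in TNFR12_KO and Igtp at 1.46 in RIPK1_D138N and 0.82 in TNFR12_KO. Without the 2 Xist-positive libraries all of these rises lost their call in RIPK1_D138N, with Ifit3 at 0.53 and Igtp at 1.02. In TNFR12_KO the Igtp call was lost in 3 of 12 fits that leave out a library. With median-of-ratios scaling 16 members rose and 2 fell in RIPK1_D138N vs Sham, against 1404 higher and 1235 lower of all 11728 genes. With quantile normalization 12 rose and 1 fell there, against 1169 higher and 1347 lower of all genes.

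The ligands that induce the members were near the lower limit of the data. Ifnb1, which encodes interferon beta, was listed at 0 in the 3 RIPK1_D138N libraries, at 0, 0.0586 and 0 FPKM in TNFR12_KO, at 0.416, 0.619 and 0.353 FPKM in WT and at 0 in the 3 Sham libraries. All WT libraries therefore had a value, against 1 of the other 9. It lay below the filter, and in the fit with no filter it was called higher in WT vs Sham (adjusted p = 5.98e-05) and lower in RIPK1_D138N vs WT (adjusted p = 8.36e-05) and TNFR12_KO vs WT (adjusted p = 0.000127). WT libraries also had the most fragments behind 1 FPKM, which lets lower levels be seen there. The part of depth in the 0 values elsewhere was not tested. Ifnk, interferon kappa, reached 0.679 FPKM in 1 WT library and was at or below 0.146 FPKM in the other 11. Ifng, which encodes interferon gamma, was at 0.0425, 0 and 0.0513 FPKM in RIPK1_D138N and 0.0437, 0.0311 and 0.0857 FPKM in TNFR12_KO and listed at 0 in all WT and Sham libraries. The other 7 listed ligands (Ifna1, Ifna2, Ifna4, Ifna5, Ifne, Ifnl2 and Ifnl3) were listed at 0 in every library.

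Of the 5 receptor chains tested, 3 rose and 1 fell in WT vs Sham. Ifngr1, the ligand-binding chain for interferon gamma, stood at 5.52, 6.94 and 6.26 FPKM in RIPK1_D138N, 7.28, 6.52 and 5.18 in TNFR12_KO, 18.6, 12.2 and 17.8 in WT and 7.66, 7.07 and 5.26 in Sham. All WT libraries were above the other 9, which overlapped. It rose by 1.16 in WT vs Sham (adjusted p = 0.000257) and fell by 1.23 in RIPK1_D138N and 1.22 in TNFR12_KO vs WT. Its partner Ifngr2 rose by 0.61 in WT vs Sham, a call lost in 3 of 12 fits that leave out a library, and fell by 1.24 in RIPK1_D138N and 0.96 in TNFR12_KO vs WT. Ifnar2, a chain of the type I receptor, fell by 0.92 in WT vs Sham and rose by 0.71 in RIPK1_D138N and 0.75 in TNFR12_KO vs WT, with all 3 calls lost under quantile normalization and that in RIPK1_D138N lost without the 2 Xist-positive libraries. Its partner Ifnar1 stood at -0.42 in WT vs Sham (adjusted p = 0.051) and at -0.31 in TNFR12_KO vs WT, not called in either, and fell by 0.49 in RIPK1_D138N vs WT, a call lost in 4 of 12 such fits and without the 2 Xist-positive libraries. Il10rb, a chain shared with the lambda receptor, rose by 0.74 in WT vs Sham and fell by 0.81 in TNFR12_KO vs WT, and Ifnlr1, the specific lambda chain, was at or below 0.0486 FPKM throughout.

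**Figure D5:**
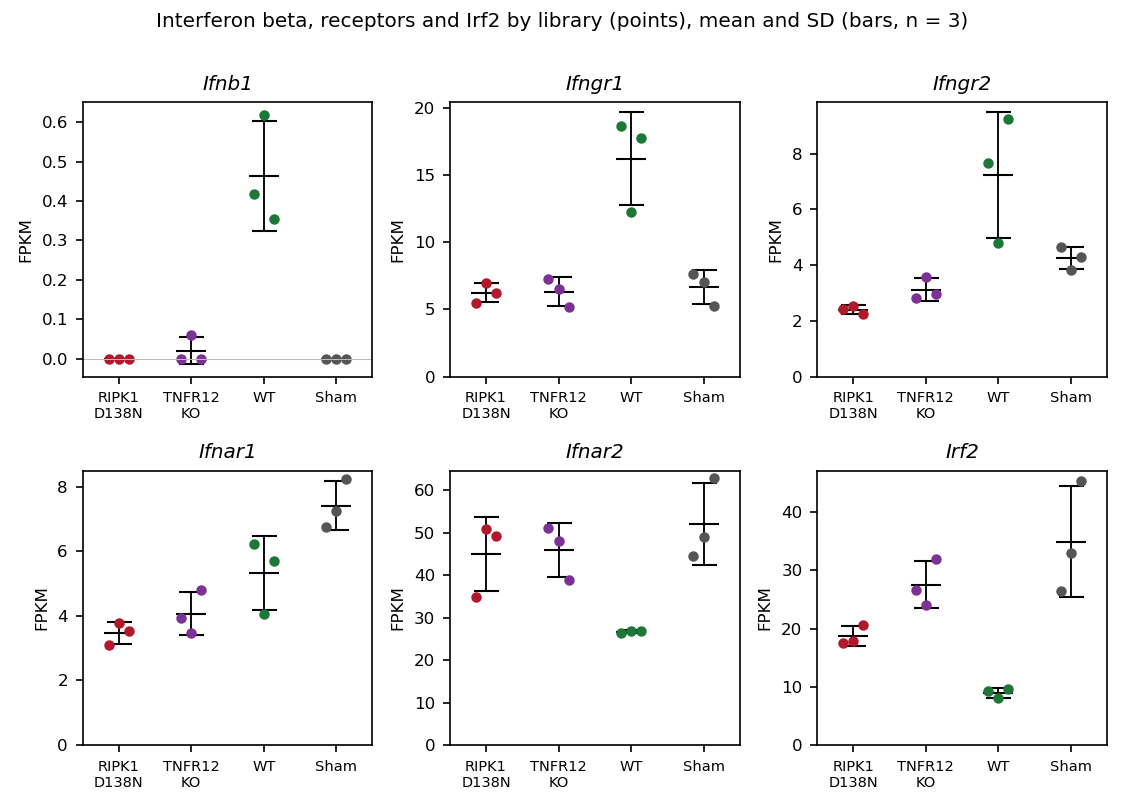
FPKM of Ifnb1, Ifngr1, Ifngr2, Ifnar1, Ifnar2 and Irf2 in each library (points), with the mean and SD of 3 libraries per group (bars). Ifnb1 has a value in all 3 WT libraries and in 1 of the other 9, Ifngr1 is highest in WT, and Irf2 is lowest there.

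Irf2, which competes with Irf1 for its sites, averaged 18.7 ± 1.69 FPKM in RIPK1_D138N, 27.5 ± 3.98 in TNFR12_KO, 8.97 ± 0.819 in WT and 34.9 ± 9.56 in Sham. It fell by 1.82 in WT vs Sham (adjusted p = 6.41e-06) and rose by 0.98 in RIPK1_D138N and 1.51 in TNFR12_KO vs WT. Among 7 tested adaptors of nucleic acid sensing, 2 rose and 4 fell in WT vs Sham. The kinase Ikbke, which phosphorylates Irf3 and Irf7, rose by 1.15 there and fell by 1.56 in RIPK1_D138N and 1.21 in TNFR12_KO vs WT, and the adaptor Traf3 had 1.21, -1.29 and -1.13 in the same comparisons. Myd88, Mavs and Ticam1, the adaptors of Toll-like receptors and RIG-I, fell in WT vs Sham by 1.75, 1.14 and 1.03. Myd88 and Ticam1 were also called lower than Sham in both mutants, and Mavs was not. With single libraries left out, Myd88 stood at -1.99 to -1.62 in RIPK1_D138N vs Sham and -2.07 to -1.70 in TNFR12_KO vs Sham. The Ticam1 call in TNFR12_KO was lost in 1 of these 12 fits.

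Interferon targets outside the 38 are given beside the shares of all genes already stated, and the difference between the type I and gamma lists was not tested. Of 18 tested targets of type I interferon, 7 rose and 3 fell in WT vs Sham, 3 rose and 9 fell in RIPK1_D138N vs WT, and 3 rose and 8 fell in TNFR12_KO vs WT, with medians of 0.32, -0.42 and -0.45. Cmpk2, the nucleotide kinase beside Rsad2, averaged 0.720 ± 0.251 FPKM in RIPK1_D138N, 0.744 ± 0.105 in TNFR12_KO, 4.99 ± 1.94 in WT and 0.474 ± 0.223 in Sham. Ifi27, on the same list, went the other way. Over the fits that leave out a library, Ifi27 stood at -1.77 to -1.25 in WT vs Sham. It stood at 1.53 to 1.89 in RIPK1_D138N vs WT and at 1.43 to 1.70 in TNFR12_KO vs WT. Of 16 tested targets of interferon gamma, 5 rose and 6 fell in WT vs Sham, 6 rose and 2 fell in RIPK1_D138N vs WT, and 9 rose and 1 fell in TNFR12_KO vs WT, with medians of -0.15, 0.49 and 0.76. The immunoproteasome subunits Psmb8, Psmb9 and Psmb10 fell in WT vs Sham by 1.27, 1.21 and 1.12 and rose in RIPK1_D138N vs WT by 1.40, 1.71 and 2.01 and in TNFR12_KO vs WT by 1.35, 1.95 and 1.58. B2m, the light chain of MHC class I, averaged 1918 ± 241 FPKM in RIPK1_D138N, 2240.4 ± 133 in TNFR12_KO, 433 ± 115 in WT and 1492 ± 288 in Sham, and its fall in WT vs Sham (-1.80) was not called under quantile normalization (-0.34). Cd274, on the same list, went the other way from these genes. Over the fits that leave out a library, Cd274 stood at 1.36 to 1.45 in WT vs Sham. It stood at -1.18 to -0.96 in RIPK1_D138N vs WT and at -0.60 to -0.49 in TNFR12_KO vs WT. Cxcl10, a chemokine for T cells that both interferons induce, averaged 25.6 ± 14.6 FPKM in RIPK1_D138N, 45.7 ± 17.5 in TNFR12_KO, 32.3 ± 1.09 in WT and 0.582 ± 0.0818 in Sham. It was called higher than Sham in all 3 other groups and was called in neither mutant vs WT, unlike Rsad2, which fell in both.

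Marker sums of the cells that could supply these transcripts also differed between groups. The summed level of 10 Kupffer cell and macrophage markers was 24.4 to 31.1 FPKM in RIPK1_D138N, 13.2 to 20.4 in TNFR12_KO, 37.1 to 48.5 in WT and 88.0 to 133 in Sham. That of 10 T and NK cell markers was 4.99 to 7.24 FPKM in RIPK1_D138N, 1.72 to 4.49 in TNFR12_KO, 0.70 to 0.766 in WT and 1.63 to 3.38 in Sham, with 1 marker at 0 in all WT libraries. No WT library reached the T and NK sum of any other library, and only 2 of the 10 markers passed the filter on low values. Sums of 7 neutrophil markers ran from 4.18 to 182 FPKM in RIPK1_D138N, 12.1 to 157 in TNFR12_KO, 4.71 to 260 in WT and 37.8 to 81.8 in Sham, and sums of 7 endothelial markers from 14.8 to 92.5, 9.51 to 46.1, 20.3 to 24.5 and 25.6 to 41.6 FPKM. The plasmacytoid dendritic cell list holds the members Bst2 and Irf7, and its defining marker Siglech was at or below 0.235 FPKM in every library. Of the 8 hepatocyte markers, Apoa1 was at 3034 FPKM or more and Ttr at 829.6 FPKM or more in every library, but Alb was listed at 0 in every library and Serpina1c at 0 in TNFR12_KO. The part of these cell types in the member values was not tested.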

How the data were processed

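Liver RNA was sequenced in 12 libraries. Per the submitters' processing notes, STAR 2.5.4a, Cufflinks 2.2.1 and Cuffdiff were used with mm10, while the annotation and any strand setting are not given in the sources used here. Per the labels' protocols, total RNA was taken up in Trizol and libraries were made with the NEB RNA Ultra kit. The deposited table holds FPKM values that the authors computed, with no counts. RIPK1_D138N and TNFR12_KO columns match samples by title, while WT and Sham columns match their group and carry no replicate number here.

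A gene was kept if 3 or more libraries reached 1 FPKM, which left 11728. These entered limma (version 3.58.1, R 4.3.3) as log2(FPKM + 1) values, in a model of the 4 group means over the 12 libraries with 8 residual degrees of freedom and limma's trend option. P-values were adjusted by Benjamini-Hochberg over all genes tested, and a call is an adjusted p under 0.05. The procedure was tested on simulated data. Means are given with the SD of 3 libraries. Gene coordinates and overlaps come from GENCODE M21, which matched all 38 members, and promoter windows from RefSeq on GRCm38.p6.

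The members and gene lists were chosen with earlier results of these data known. Values in every library are given for the 11 members with an absolute log2 fold change of at least 1 at an adjusted p under 0.05 in WT vs Sham, either mutant vs WT or RIPK1_D138N vs TNFR12_KO, and a highest group mean of at least 5 FPKM. Of the other lists, the ligands and receptors are named, with some but not all of the genes past those same limits of fold and p. The markers Siglech, Apoa1, Ttr, Alb and Serpina1c were named after their values were seen. Alternatives were another pseudocount (0.1), no filter, a filter of 5 FPKM, median-of-ratios scaling, quantile normalization, no trend, the compared groups alone, each library left out, the 2 Xist-positive libraries left out, and a replicate block. The list of intracellular relays is not reported here as a whole.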

Additional observations from a re-analysis of the deposited data

Results flagged for a closer look

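Rsad2 is the 1 result singled out, because its difference between the 2 mutants passed the test of that difference itself. It was lower in RIPK1_D138N than in TNFR12_KO with a log2(FPKM + 1) difference of -2.139 (limma, adjusted p = 0.000845), with means of 2.45 ± 1.36 FPKM in RIPK1_D138N and 13.6 ± 1.97 FPKM in TNFR12_KO (SD, n = 3 each). All 3 RIPK1_D138N libraries lay below all 3 TNFR12_KO libraries. The lowest values came from RIPK1_D138N replicates 2 and 3, the Xist-positive libraries. Without them the difference was -1.53, resting on 1 RIPK1_D138N library. With a replicate block the difference was not called. Summed Kupffer cell and macrophage markers were higher in RIPK1_D138N, at 24.4 to 31.1 FPKM, than in TNFR12_KO, at 13.2 to 20.4 FPKM, and their part in the difference was not tested.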

How the results depend on the processing

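Counts of members called (of 36) stayed within 1.5 times their value under another pseudocount, no filter, both scalings, no trend and the compared groups alone. With a filter of 5 FPKM, 24 members were tested and the counts were 17 in WT vs Sham, 10 in RIPK1_D138N vs WT and 10 in RIPK1_D138N vs Sham, the smaller number of members tested being part of the change. Of all 6885 genes tested there, 881 were higher and 3893 lower in WT vs Sham. The counts were 2813 and 1352 in RIPK1_D138N vs WT, and 504 and 1963 in RIPK1_D138N vs Sham. Without the 2 Xist-positive libraries 2 members were called in RIPK1_D138N vs Sham. With single libraries left out the counts ran from 22 to 26 in WT vs Sham, 14 to 17 in RIPK1_D138N vs WT, 12 to 17 in TNFR12_KO vs WT, 1 to 2 in RIPK1_D138N vs TNFR12_KO, 9 to 19 in RIPK1_D138N vs Sham and 12 to 16 in TNFR12_KO vs Sham. With a replicate block, which could be fitted for the 2 mutants alone, 0 members were called between them and Rsad2 stood at -2.14 with an adjusted p of 0.224. The same-numbered libraries did not deviate together (correlations of -0.097, -0.202 and 0.057), so the labels' numbers were not taken as pairs. The sign turned under quantile normalization for Lgals3bp (0.12), Iigp1 (0.17) and H2-K1 (0.63) in WT vs Sham, H2-K1 (-0.055) in RIPK1_D138N vs WT and Iigp1 (-0.13) in TNFR12_KO vs WT, and the cause was not tested. Of 1732 values of single members tried under an alternative, 1557 kept direction and call, 172 lost the call and 3 turned. FPKM without counts gives no interval for low values, which are coarsest in Sham.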
